A study of Homo sapiens with 8 samples.

Results

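The genes described here are 8 regulators and markers of the mesenchymal state: the transcription factors ZEB1, ZEB2, SNAI1, SNAI2, TWIST1 and TWIST2, and the structural genes VIM and CDH2. They were taken by name from a fixed list, and 7 of the 8 had a named probe set, out of 14884 genes tested. CDH2, which encodes N-cadherin, is not analysed here. The 7 genes were read by 9 probe sets, of which 3 carry the name VIM. Where a gene had several, the one with the highest mean over the arrays stood for it.

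Total RNA was measured on whole-transcript expression arrays in SCC13 cells, an established line from a human skin squamous cell carcinoma. The cells carried a short hairpin RNA against BMI1 (shBMI1), RING1B (shRING1B) or EZH2 (shEZH2), or against GFP (shGFP), a gene these cells do not have, which served as the control. There were 8 arrays in 4 groups of 2. RING1B and BMI1 are subunits of Polycomb repressive complex 1, which ubiquitylates histone H2A, and EZH2 methylates histone H3 within Polycomb repressive complex 2. The comparisons ask which genes differ when each is targeted. Sample titles begin with SCCL3 for the shEZH2 arrays and with SCC13 for the others, although all are labelled as the same line, so whatever that prefix marks cannot be told apart from the EZH2 hairpin. Each target has 1 hairpin label, and nothing states that the paired arrays of a group come from separate cultures. The p-values therefore measure only the spread between these arrays.

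In an epithelial to mesenchymal transition, cells loosen their junctions and become motile. The ZEB, SNAI and TWIST factors drive it, largely by binding E-box motifs in epithelial genes such as those of cadherins, claudins and occludin and repressing them. VIM encodes vimentin, the intermediate filament of mesenchymal cells, and N-cadherin replaces E-cadherin at the cell surface. Squamous carcinoma cells often carry part of this programme while they keep keratins. Polycomb complexes are known to hold many developmental regulators silent, and SNAI1 and TWIST1 have been linked to recruitment of Polycomb proteins to the E-cadherin gene.

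ZEB1 and ZEB2 are also held down after transcription by the miR-200 family of microRNAs, whose genes the ZEB factors repress in turn. The 5 mature family members are shown because their seeds, bases 2 to 8, in capitals, define which sites on the ZEB transcripts they can pair with. The sequences come from RefSeq (GRCh38.p14) and are written 5′ to 3′.
hsa-miR-200b-3p: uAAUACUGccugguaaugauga
hsa-miR-200c-3p: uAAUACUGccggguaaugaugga
hsa-miR-429: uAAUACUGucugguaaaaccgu
hsa-miR-200a-3p: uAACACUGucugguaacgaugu
hsa-miR-141-3p: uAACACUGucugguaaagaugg
The seed AAUACUG is shared by miR-200b, miR-200c and miR-429, and the seed AACACUG by miR-200a and miR-141. MIR200B, MIR200A and MIR429 lie together on chromosome 1, and MIR200C and MIR141 on chromosome 12.

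The promoters of ZEB1, ZEB2 and VIM are shown because these were the 3 genes of the 7 with the largest differences between shBMI1 and shGFP. Each sequence holds the 250 bases before the most upstream RefSeq start, on the gene's own strand, with CG dinucleotides in capitals. In GRCh38.p14 they are chr10:31318167-31318416 on the plus strand (ZEB1), chr2:144520120-144520369 on the minus strand (ZEB2) and chr10:17227991-17228240 on the plus strand (VIM).
ZEB1: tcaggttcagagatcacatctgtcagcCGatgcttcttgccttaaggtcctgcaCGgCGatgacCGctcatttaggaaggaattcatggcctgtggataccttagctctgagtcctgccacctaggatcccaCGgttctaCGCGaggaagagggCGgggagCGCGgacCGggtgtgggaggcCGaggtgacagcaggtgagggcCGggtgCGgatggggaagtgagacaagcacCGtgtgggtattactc
ZEB2: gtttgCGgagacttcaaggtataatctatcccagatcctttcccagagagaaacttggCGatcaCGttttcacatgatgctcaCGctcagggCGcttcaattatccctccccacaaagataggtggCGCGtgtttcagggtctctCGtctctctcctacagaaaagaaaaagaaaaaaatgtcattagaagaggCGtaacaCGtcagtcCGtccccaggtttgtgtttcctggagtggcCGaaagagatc
VIM: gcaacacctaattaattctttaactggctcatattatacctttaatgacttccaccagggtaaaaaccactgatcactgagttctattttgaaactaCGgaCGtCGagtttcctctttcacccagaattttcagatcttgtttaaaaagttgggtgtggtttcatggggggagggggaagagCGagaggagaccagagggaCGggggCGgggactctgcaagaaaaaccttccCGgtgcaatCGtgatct
The ZEB1 window holds 15 CG dinucleotides, the ZEB2 window 12 and the VIM window 8, against a median of 10 and quartiles of 3 and 23 over the promoters of 27305 genes. The E-box CAGGTG, searched on both strands, occurs 1 time in the ZEB1 window and not in the windows of ZEB2 and VIM. It occurs in 17.5% of all promoter windows of this length. All 250 bases of each of the 3 windows lie inside the span of an antisense long non-coding RNA gene: ZEB1-AS1, ZEB2-AS1 and VIM-AS1. Of the 8 listed genes, 5 were in the promoter table. SNAI1, SNAI2 and TWIST1 were not.

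The arrays were alike as wholes, with median log2 values between 5.49 and 5.52. EZH2, the only targeted gene with a named probe set, read 9.83 and 9.97 with shGFP and 8.95 and 9.03 with shEZH2. It fell by 0.91 ± 0.12 on the log2 scale (SE), which is 1.88-fold (limma, adjusted p = 0.0183). BMI1 and RNF2, the gene for RING1B, are not analysed here, so the knockdown in those 2 groups was not checked. All 8 measured keratinocyte and squamous carcinoma markers, of 15 listed, were above the limit of the dimmest 30% of genes (log2 5.61), and their mean level was 9.18 to 9.42 on every array. Of 12 fibroblast markers 4 were measured, DCN, LUM, DPT and THY1, and LUM and DPT were below that limit.

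Values below are log2 expression with the spread given as the SD of the 2 arrays. Differences are log2 differences of group means with their SE from a limma fit over all 8 arrays, and an adjusted p under 0.05, after Benjamini-Hochberg adjustment over all 14884 genes, is called a change. An exact permutation test of 2 arrays against 2 cannot give a two-sided p below 0.333. In bulk RNA, more cells with a transcript and more RNA per cell cannot be told apart. Levels of different genes are not compared, since probe sets differ in brightness for the same amount of RNA.

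**Figure D1:**
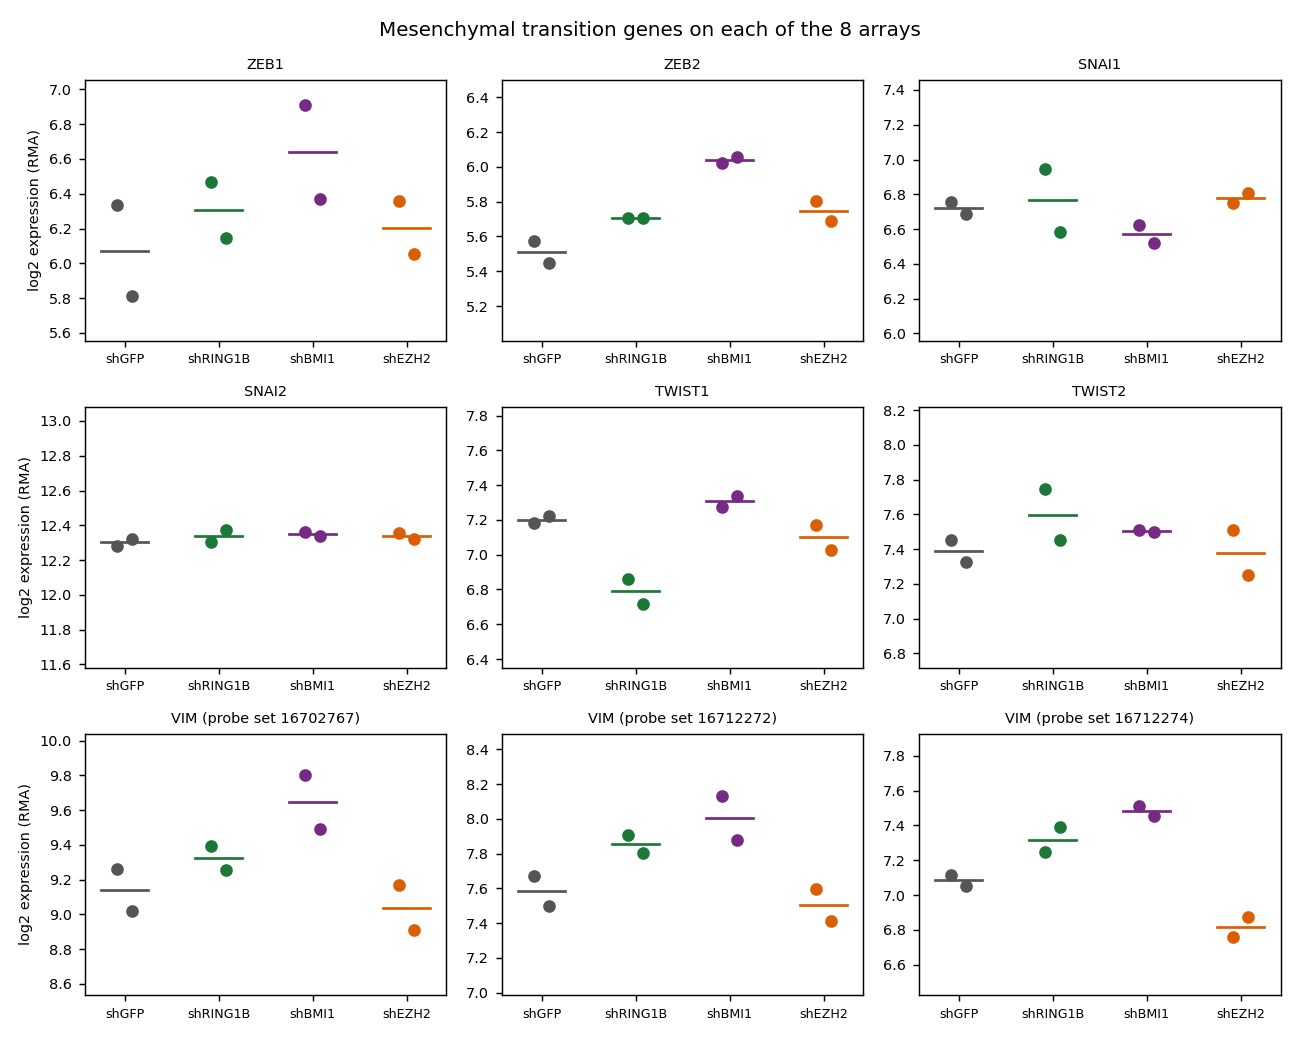
Log2 expression (vertical axis, the same span of 1.5 in every panel) on each array (points) with the group mean (bar), for the 6 transcription factors and the 3 probe sets named VIM, in the shGFP, shRING1B, shBMI1 and shEZH2 groups of 2 arrays. ZEB1, ZEB2 and the 3 VIM probe sets have their highest group mean with shBMI1, TWIST1 has its lowest with shRING1B, and SNAI2 lies within 0.09 on all 8 arrays.

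None of the 7 genes changed in any of the 3 comparisons with shGFP, in the 3 comparisons between hairpins or in a moderated F test over the 4 groups. The largest differences from shGFP were those of ZEB2, VIM and ZEB1, which were 1.44-fold, 1.42-fold and 1.48-fold higher with shBMI1, and of TWIST1, which was 1.33-fold lower with shRING1B. The smallest adjusted p against shGFP was that of ZEB2 with shEZH2 (0.259, 1.18-fold higher). Among all genes the share called was 0% with shRING1B, 0.732% (109 genes) with shEZH2 and 0% with shBMI1, so in 2 of these 3 comparisons no gene of any kind passed. In the F test it was 0.679%, and the adjusted p of the 7 genes ran from 0.119 for ZEB2 and 0.131 for TWIST1 through 0.210 for VIM to 0.974 for SNAI2.

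The zinc finger homeobox repressor ZEB2 (chromosome 2, 144384081 to 144520119, GRCh38.p14) read 5.57 and 5.45 with shGFP, 5.71 and 5.71 with shRING1B, 5.80 and 5.69 with shEZH2, and 6.02 and 6.06 with shBMI1. Both shBMI1 arrays were above all 6 others, both shGFP arrays were below all 6 others, and shRING1B and shEZH2 overlapped. The shBMI1 mean was 0.53 ± 0.09 above shGFP (95% interval 0.32 to 0.73, not adjusted for the number of genes). This was the 15th smallest p among all genes in that comparison, but the adjusted p was 0.316. With shEZH2 the difference was 0.23 ± 0.09 (adjusted p = 0.259) and with shRING1B 0.20 ± 0.09 (adjusted p = 0.598). ZEB2 is near the low end of the array's range, where RMA is known to compress differences.

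ZEB1 (chromosome 10, 31318417 to 31529804) encodes the closely related factor. It read 6.34 and 5.81 with shGFP, 6.47 and 6.15 with shRING1B, 6.36 and 6.05 with shEZH2, and 6.91 and 6.37 with shBMI1. Both shBMI1 arrays were above both shGFP arrays, but the lower of them was below the higher shRING1B array, and the other 3 groups overlapped one another. In each of the 4 groups replicate 1 was above replicate 2, by 0.30 to 0.54, a gap about as large as the difference between hairpins. The shBMI1 mean was 0.57 ± 0.23 above shGFP (95% interval 0.03 to 1.10, adjusted p = 0.884). The differences from shGFP were 0.23 ± 0.23 with shRING1B and 0.13 ± 0.23 with shEZH2 (adjusted p = 0.850 and 0.823).

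Neither ZEB gene's antisense neighbour passed the test, and neither did ZEB1 or ZEB2. ZEB1-AS1 differed from shGFP by 0.07 ± 0.08 with shBMI1 (adjusted p = 0.999). ZEB2-AS1 has 2 probe sets, which differed by -0.26 ± 0.11 and 0.22 ± 0.19 with shBMI1 (adjusted p = 0.893 and 0.999) and so disagree in sign.

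SNAI2, also known as Slug, is the SNAI factor known to be active in basal keratinocytes. It was the steadiest of the 7 genes: its 8 arrays lay between 12.28 and 12.37, and group means were 12.30 ± 0.03 with shGFP, 12.34 ± 0.05 with shRING1B, 12.35 ± 0.02 with shBMI1 and 12.34 ± 0.02 with shEZH2. The 95% intervals of the difference from shGFP were -0.15 to 0.22 with shRING1B, -0.14 to 0.23 with shBMI1 and -0.15 to 0.22 with shEZH2.

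SNAI1, or Snail (chromosome 20, 49982980 to 49988886), represses E-cadherin directly. It read 6.76 and 6.68 with shGFP, 6.95 and 6.59 with shRING1B, 6.63 and 6.52 with shBMI1, and 6.75 and 6.80 with shEZH2. The shBMI1 pair was below the shGFP and shEZH2 pairs, and all other pairs of groups overlapped. SNAI1 was the only one of the 7 genes with a lower mean under shBMI1 than under shGFP, by -0.15 ± 0.12 (95% interval -0.43 to 0.14, adjusted p = 0.995). With shRING1B and shEZH2 the differences were 0.05 ± 0.12 and 0.06 ± 0.12.

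The basic helix-loop-helix factor TWIST1 (chromosome 7, 19113047 to 19117636) had its lowest values with shRING1B. It read 7.18 and 7.22 with shGFP, 6.86 and 6.72 with shRING1B, 7.28 and 7.34 with shBMI1, and 7.17 and 7.03 with shEZH2. The 4 groups did not overlap, in the order shRING1B, shEZH2, shGFP, shBMI1, although the shEZH2 and shGFP pairs nearly met, at 7.17 and 7.18. The shRING1B mean was -0.41 ± 0.09 from shGFP (95% interval -0.63 to -0.19, adjusted p = 0.326), the 108th smallest p of that comparison. Against shBMI1 it was -0.52 ± 0.09 (adjusted p = 0.237) and against shEZH2 -0.31 ± 0.09 (adjusted p = 0.183).

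TWIST2 (chromosome 2, 238848085 to 238910534), the paralogue of TWIST1, did not share that pattern. It read 7.45 and 7.32 with shGFP, 7.75 and 7.45 with shRING1B, 7.51 and 7.50 with shBMI1, and 7.51 and 7.25 with shEZH2. Its highest mean, 7.60 ± 0.21, was with shRING1B, where TWIST1 had its lowest, but that pair overlapped every other group through its lower array. The differences from shGFP were 0.21 ± 0.13, 0.12 ± 0.13 and -0.01 ± 0.13 with shRING1B, shBMI1 and shEZH2 (adjusted p = 0.722, 0.999 and 0.981).

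VIM (chromosome 10, 17228241 to 17237593), the mesenchymal filament gene, was represented by probe set 16702767. It read 9.26 and 9.02 with shGFP, 9.40 and 9.25 with shRING1B, 9.80 and 9.49 with shBMI1, and 9.17 and 8.91 with shEZH2. Both shBMI1 arrays were above all 6 others, and the shGFP pair overlapped the shRING1B and shEZH2 pairs. The shBMI1 mean was 0.51 ± 0.15 above shGFP (95% interval 0.17 to 0.84, adjusted p = 0.698). With shRING1B the difference was 0.19 ± 0.15 and with shEZH2 -0.10 ± 0.15 (adjusted p = 0.803 and 0.781). As for ZEB1, replicate 1 was above replicate 2 in each of the 4 groups, here by 0.14 to 0.31.

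The other 2 probe sets named VIM gave the same order of group means, shEZH2, shGFP, shRING1B, shBMI1. Probe set 16712272 read 7.67 and 7.50 with shGFP, 7.91 and 7.80 with shRING1B, 8.13 and 7.88 with shBMI1, and 7.60 and 7.41 with shEZH2. Probe set 16712274 read 7.12 and 7.05 with shGFP, 7.25 and 7.39 with shRING1B, 7.51 and 7.45 with shBMI1, and 6.76 and 6.88 with shEZH2. On the latter the 4 groups did not overlap. In a fit over all 16098 named probe sets, shBMI1 was above shGFP by 0.51 ± 0.15, 0.42 ± 0.12 and 0.40 ± 0.09 on the 3 probe sets in turn (adjusted p = 0.720, 0.721 and 0.633).

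The largest differences of VIM were between shEZH2 and shBMI1. On the representative probe set shEZH2 was -0.61 ± 0.15 from shBMI1, 1.52-fold lower (95% interval -0.94 to -0.27, adjusted p = 0.105). This probe set passed under 3 other settings of the fit over genes, namely a trended and robust variance (adjusted p = 0.0155), the replicate block (0.0321) and leaving out the dimmest 30% of genes (0.0466), and under none that left out an array. Over the named probe sets the difference was -0.61 ± 0.15 on 16702767, -0.50 ± 0.12 on 16712272 and -0.66 ± 0.09 on 16712274 (adjusted p = 0.111, 0.113 and 0.0227), so only 16712274 passed, 1.58-fold lower. Its call was lost without either shBMI1 array or either shEZH2 array (adjusted p between 0.0999 and 0.178) and when only the 4 arrays compared were fitted (0.0702). All 3 probe sets passed with the trended and robust variance (adjusted p = 0.0168, 0.0279 and 0.00359) and without the dimmest 30% of probe sets (0.0491, 0.04997 and 0.00661), and 16702767 and 16712274 passed with the replicate block (0.0352 each).

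Whether all 3 probe sets read VIM itself is not settled by the annotation, which gives no strand. VIM is on the plus strand and VIM-AS1 (chromosome 10, 17214239 to 17229985) runs across its start. Of the 40 named probe sets numbered nearest to 16702767, 39 belong to genes on the plus strand. Of the 40 nearest to 16712272 and 16712274, 38 belong to genes on the minus strand. RNA from VIM and from an antisense transcript cannot be told apart on those 2 probe sets, and the call over all named probe sets rests on one of them.

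**Figure D2:**
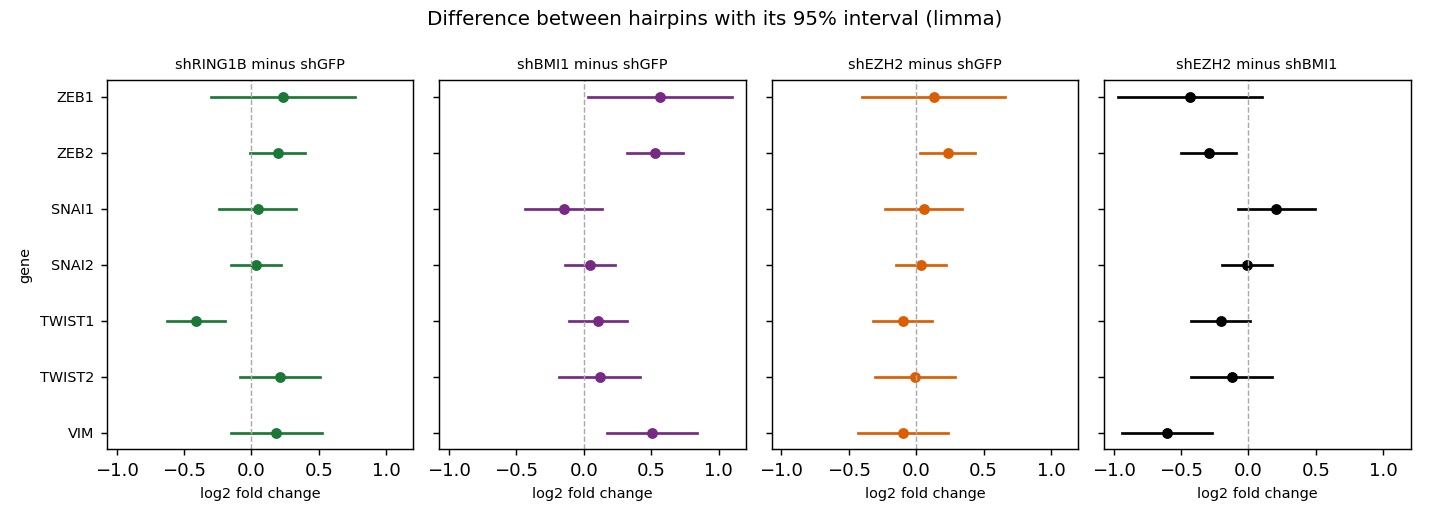
Log2 difference of group means (horizontal axis) with its 95% interval for the 7 genes, in the comparisons of shRING1B, shBMI1 and shEZH2 with shGFP and of shEZH2 with shBMI1. ZEB2, VIM and ZEB1 lie between 0.51 and 0.57 with shBMI1 and TWIST1 at -0.41 with shRING1B; intervals are not adjusted for the number of genes, and no gene passed the adjusted test.

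With shBMI1, 6 of the 7 genes had both arrays above both shGFP arrays and SNAI1 had both below. Over all genes, 14.0% had both arrays above and 17.8% both below. At an unadjusted p under 0.05, 3 of the 7 genes were higher (ZEB1, ZEB2 and VIM), where 2.89% of all genes were higher, and none was lower, where 2.69% were. The median difference of the 7 genes was 0.12, against -0.01 over all genes. These counts describe genes that were picked with results of these arrays known, and none of the genes passed the adjusted test.

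With shRING1B, 1 of the 7 genes had both arrays above the shGFP pair (ZEB2; 18.2% of all genes) and 1 had both below (TWIST1; 19.1%). At an unadjusted p under 0.05 the count was 1 lower, TWIST1 (3.80% of all genes lower), and 0 higher (4.80%). The median difference was 0.19, the value of VIM.

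With shEZH2, likewise, ZEB2 had both arrays above the shGFP pair (23.1% of all genes) and TWIST1 had both below (27.0%). At an unadjusted p under 0.05, ZEB2 alone was higher (7.53% of all genes) and 0 were lower (8.65%). The median difference was 0.04. These shares are near those of all genes, in the comparison that had the most calls against shGFP. The 3 comparisons share the shGFP arrays.

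Between hairpins, the share of all genes called was 0.974% for shEZH2 against shBMI1 (145 genes), 0.578% for shRING1B against shEZH2 (86 genes) and 0.0134% for shRING1B against shBMI1 (2 genes), and 0 of the 7 genes were among them. Against shBMI1, shEZH2 had both arrays lower in 4 of the 7 genes (24.1% of all genes) and higher in 1, SNAI1 (22.9%). At an unadjusted p under 0.05, VIM and ZEB2 were lower (7.32% of all genes lower). ZEB2 differed by -0.30 ± 0.09 (adjusted p = 0.175), ZEB1 by -0.44 ± 0.23 (adjusted p = 0.427) and SNAI1 by 0.20 ± 0.12 (adjusted p = 0.495). For shRING1B against shBMI1, TWIST1 and ZEB2 were lower at an unadjusted p under 0.05 (3.98% of all genes lower), ZEB2 by -0.33 ± 0.09 (adjusted p = 0.332).

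Over the 8 arrays ZEB1 and VIM had the highest Pearson r of any 2 of the 7 genes (r = 0.90, Spearman rho = 0.88), and ZEB1 and TWIST2 the highest rho (r = 0.61, rho = 0.93). The correlation was 0.74 between ZEB1 and ZEB2 and 0.75 between ZEB2 and VIM, and it was -0.61 between SNAI1 and SNAI2. These are descriptions over 8 arrays that share 4 hairpins, and the shared gap between replicates 1 and 2 enters the value for ZEB1 and VIM.

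Among 2833 protein-coding genes that spanned at least 0.5 over the 8 arrays, those with the most similar pattern to ZEB1 were DPYSL3 (r = 0.91, rho = 0.90) and KRT13 (0.90 and 0.81). For ZEB2 they were JAM3 (r = 0.92, rho = 0.79), a junctional adhesion molecule, and ZIC2 (0.91 and 0.90), a developmental zinc finger factor. For TWIST1 they were ZNF429 (r = 0.94, rho = 0.88) and IGF2BP3 (0.94 and 0.81), an RNA-binding protein. For VIM they were AWAT1 (r = 0.93, rho = 0.83) and ADAM21 (0.92 and 0.95), and for TWIST2 ELMOD3 (0.95 and 0.74) and BCAS4 (0.92 and 0.81). For SNAI1 they were RHOB (r = 0.94, rho = 0.95), a small GTPase, and MCEMP1 (0.94 and 0.98), and for SNAI2 VCAN (0.92 and 0.88), which encodes versican, and ZNF799 (0.89 and 0.88). With this many candidates and 8 arrays, values of this size are the top of a long list.

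The targets of these factors were described through a list of 33 epithelial genes that ZEB and SNAI factors are known to repress or that oppose them, of which 28 were measured. CDH1, the E-cadherin gene, was not among them. The tight junction genes CLDN1, CLDN7 and OCLN rose with shEZH2, and the other junction genes of the list did not pass the test. CLDN1 (claudin 1) read 6.51 and 6.42 with shGFP and 7.80 and 7.95 with shEZH2, a rise of 1.41 ± 0.17 (2.66-fold, adjusted p = 0.0159). CLDN7 (claudin 7) read 7.84 and 7.70 with shGFP and 8.83 and 8.83 with shEZH2, a rise of 1.06 ± 0.14 (2.08-fold, adjusted p = 0.0222). OCLN (occludin) read 6.33 and 6.43 with shGFP and 7.31 and 7.19 with shEZH2, a rise of 0.87 ± 0.10 (1.83-fold, adjusted p = 0.0109). In each of the 3 genes both shEZH2 arrays were above all 6 others.

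In all, 3 of the 28 epithelial genes rose and 0 fell with shEZH2, against 0.558% of all genes higher and 0.175% lower. The list had 20 genes above and 8 below shGFP, where 48.1% of all genes were above, and its median difference was 0.08. This median was 0.14 without shEZH2 replicate 1, 0.13 with quantile normalization and 0.06 with median centring. Without shEZH2 replicate 2, 17 genes of the list were above and 11 below shGFP. None of the 3 calls held without either shGFP array or without either shEZH2 array, although the rises stayed between 0.81 and 1.49 (adjusted p up to 0.181). ZEB2, a repressor of such genes, was 0.23 higher in the same group, and ZEB1 and SNAI1 were 0.13 and 0.06 above shGFP in it. None of these differences passed the test (adjusted p = 0.259, 0.823 and 0.862). Whether the levels of these factors had a part in the epithelial values was not tested.

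With shBMI1, where ZEB1, ZEB2 and VIM had their highest values, 24 of the 28 epithelial genes were below and 4 above shGFP, where 46.6% of all genes were above, with a median of -0.16 against -0.01 over all genes. Both shBMI1 arrays were below both shGFP arrays in 15 of the 28 genes and above in 1, GRHL1, where the shares over all genes were 17.8% and 14.0%. At an unadjusted p under 0.05, 5 were lower (2.69% of all genes) and 0 higher (2.89%), and none passed the adjusted test. ST14, the membrane protease matriptase, read 7.68 and 7.56 with shGFP and 7.18 and 7.14 with shBMI1 (-0.46 ± 0.08, adjusted p = 0.397). The tight junction gene MARVELD3 differed by -0.40 ± 0.11 and OCLN by -0.37 ± 0.10 (adjusted p = 0.664 each). Without shBMI1 replicate 1 the count below shGFP was 19 of 28 and the median -0.08. Of 11 further mesenchymal transition markers, described below, 7 were above and 4 below shGFP with shBMI1 (median 0.03). Of 15 other transcription factors of the transition, 10 were above and 5 below it (median 0.04). These counts, too, describe lists that were chosen with earlier results of these data known. Whether the levels of ZEB1 and ZEB2 had a part in the epithelial values was not tested.

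With shRING1B the list was even, 14 genes above and 14 below shGFP with a median of -0.01, and none passed. OCLN was 0.52 ± 0.10 above shGFP (adjusted p = 0.231). The desmosomal gene DSP was -0.36 ± 0.09 and OVOL2, a factor that opposes ZEB1, -0.30 ± 0.10 from shGFP (adjusted p = 0.346 and 0.434).

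**Figure D3:**
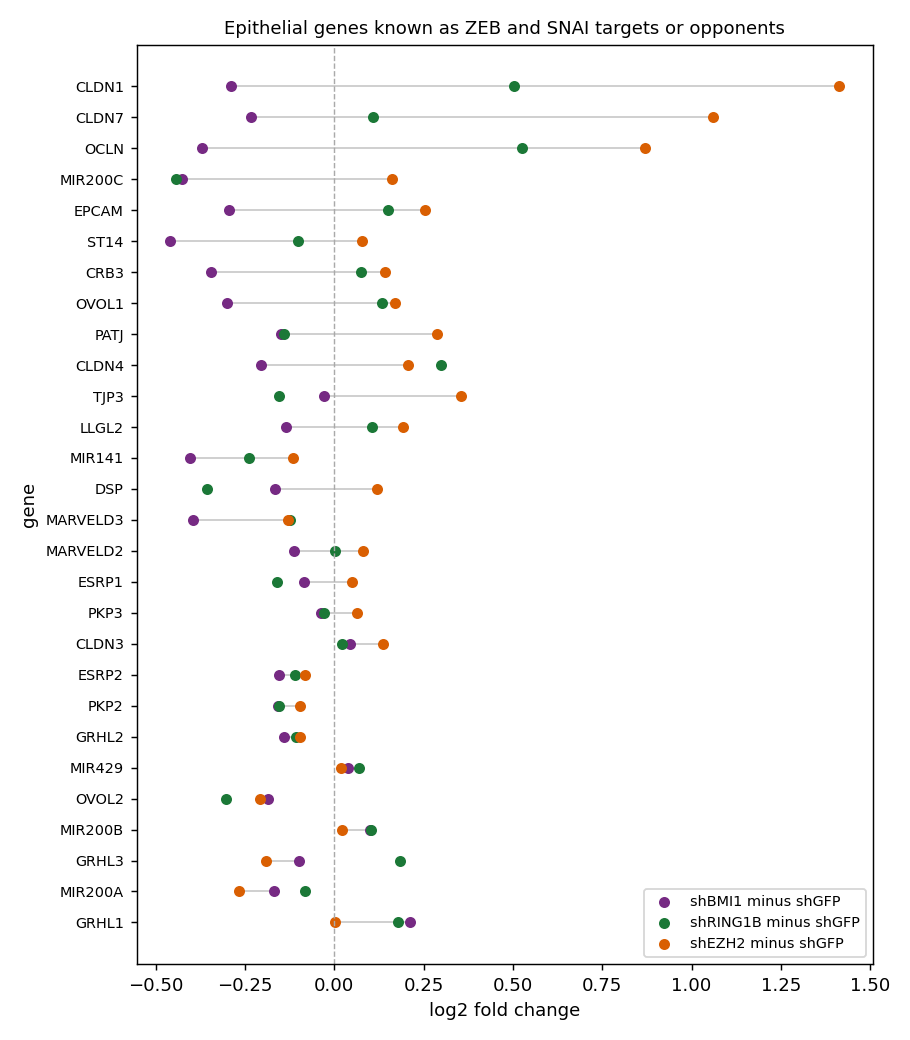
Log2 difference from shGFP (horizontal axis) of 28 epithelial genes (rows, sorted by shEZH2 minus shBMI1) with shRING1B, shBMI1 and shEZH2 (points), a grey line joining the shBMI1 and shEZH2 values. With shBMI1 24 of the 28 points are below 0, and with shEZH2 20 are above 0, CLDN1, CLDN7 and OCLN the farthest.

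In the direct comparison of shEZH2 with shBMI1, whose difference does not use the shGFP means although those arrays add to the estimate of the spread, 4 of the 28 epithelial genes were higher with shEZH2 (0.692% of all genes were called higher) and 0 lower (0.282%). OCLN was higher by 1.24 ± 0.10 (2.36-fold, adjusted p = 0.00325), CLDN1 by 1.70 ± 0.17 (3.26-fold, adjusted p = 0.00768), CLDN7 by 1.29 ± 0.14 (2.45-fold, adjusted p = 0.00845) and ST14 by 0.54 ± 0.08 (1.45-fold, adjusted p = 0.0310). Both shEZH2 arrays were above both shBMI1 arrays in 16 of the 28 genes and below in 0, where the shares over all genes were 22.9% and 24.1%. The median difference was 0.28. The call of ST14 was lost without any one of the 8 arrays, although its difference stayed between 0.51 and 0.56. That of OCLN was lost without shEZH2 replicate 1 and that of CLDN1 without either shEZH2 array. CLDN7 lost its call without either shEZH2 array or shBMI1 replicate 1. The median was 0.15 without shBMI1 replicate 1. In the comparison of shRING1B with shEZH2, CLDN7 was lower with shRING1B by -0.95 ± 0.14 (adjusted p = 0.0336; 0.356% of all genes were called lower), a call that was lost without each of 6 arrays (adjusted p up to 0.228).

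The miR-200 hairpin genes were among the 28, and none of the 5 changed. MIR200A, MIR141 and MIR429 were below the limit for dim genes, where a difference could be missed. The probe sets read RNA from the hairpin loci and not the mature microRNAs shown above. MIR200C read 6.19 and 6.30 with shGFP, 5.73 and 5.88 with shRING1B, 5.27 and 6.37 with shBMI1, and 6.39 and 6.42 with shEZH2. Both shRING1B arrays were below the shGFP pair, and the 2 shBMI1 arrays lay on either side of it. The difference from shGFP was -0.44 ± 0.29 with shRING1B, -0.43 ± 0.29 with shBMI1 and 0.16 ± 0.29 with shEZH2 (adjusted p = 0.741, 0.969 and 0.823). MIR141, its neighbour, read 4.66 and 5.52 with shBMI1, against 5.54 and 5.45 with shGFP, so that the same shBMI1 array was the low one. MIR200A read 4.42 and 4.90 with shBMI1, against 4.74 and 4.92 with shGFP. The shBMI1 means of MIR200B and MIR429 were 5.85 and 4.59, above the shGFP means of 5.75 and 4.55.

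Of 26 further mesenchymal transition markers 11 were measured, and 1 changed against shGFP, with shEZH2, where 0.732% of all genes were called. LOXL2, a lysyl oxidase that cross-links collagen, read 7.91 and 8.07 with shGFP and 8.54 and 8.79 with shEZH2, a rise of 0.67 ± 0.11 (1.59-fold, adjusted p = 0.0479). That call was lost without any one of the 8 arrays (adjusted p between 0.0716 and 0.281). The receptor tyrosine kinase AXL read 10.43 and 10.35 with shGFP, 10.82 and 10.84 with shRING1B, 10.74 and 10.58 with shBMI1, and 10.01 and 9.93 with shEZH2. It was -0.42 ± 0.09 from shGFP with shEZH2 (adjusted p = 0.0912), 0.44 ± 0.09 with shRING1B (0.288) and 0.27 ± 0.09 with shBMI1 (0.799).

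The matricellular gene CCN2, or CTGF, read 9.16 and 9.04 with shGFP, 9.43 and 9.74 with shRING1B, 9.56 and 9.71 with shBMI1, and 8.81 and 8.82 with shEZH2. For both AXL and CCN2 the shEZH2 arrays were the lowest of the 8. So they were for the actin-binding gene TAGLN, at 6.74 and 6.76, which was -0.60 ± 0.16 from shGFP with shEZH2 (adjusted p = 0.132). AXL was lower with shEZH2 than with shBMI1 by -0.69 ± 0.09 and CCN2 by -0.82 ± 0.12 (adjusted p = 0.0184 and 0.0245). Both were higher with shRING1B than with shEZH2, AXL by 0.86 ± 0.09 and CCN2 by 0.77 ± 0.12 (adjusted p = 0.0120 and 0.0398; 0.222% of all genes were called higher). These 4 calls were lost without either array of the 2 groups compared (adjusted p up to 0.252), and that of CCN2 between shRING1B and shEZH2 without any one of the 8 arrays. With shRING1B the extracellular matrix gene TNC was 0.46 ± 0.08 and CCN2 0.48 ± 0.12 above shGFP (adjusted p = 0.179 and 0.346). With shBMI1 CCN2 was 0.53 ± 0.12 and TNC 0.17 ± 0.08 above it (adjusted p = 0.577 and 0.903). The adhesion molecule L1CAM was 0.42 ± 0.11 above shGFP with shEZH2 (adjusted p = 0.122).

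Of 18 other transcription factors of the transition 15 were measured, and 0 changed against shGFP. The chromatin factor HMGA2 read 9.00 and 8.83 with shGFP, 8.53 and 8.43 with shRING1B, 9.25 and 9.13 with shBMI1, and 8.67 and 8.58 with shEZH2. Its difference from shGFP was -0.44 ± 0.10 with shRING1B, 0.27 ± 0.10 with shBMI1 and -0.30 ± 0.10 with shEZH2 (adjusted p = 0.318, 0.833 and 0.210). It was lower with shEZH2 than with shBMI1 by -0.57 ± 0.10 (adjusted p = 0.0488), a call lost without any one of the 8 arrays (adjusted p between 0.0618 and 0.280). SOX9 differed from shGFP by 0.32 ± 0.11 with shRING1B and by -0.42 ± 0.11 with shEZH2 (adjusted p = 0.453 and 0.129). It was higher with shRING1B than with shEZH2 by 0.73 ± 0.11 (adjusted p = 0.0315), a call lost without each of 6 arrays (adjusted p up to 0.248).

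RUNX2, a bone and cartilage factor, was 0.37 ± 0.09 above shGFP with shEZH2 (adjusted p = 0.120). TCF3 was 0.15 ± 0.08 above it with shRING1B (0.676). With shBMI1, TCF4 was 0.17 ± 0.09 and GSC 0.22 ± 0.12 above it (0.929 and 0.930).

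Of 23 genes of the TGF-beta, BMP and NOTCH pathways that can induce the transition 12 were measured, and 1 changed against shGFP, with shEZH2 (0.732% of all genes called). BMP2, a secreted ligand, read 6.60 and 6.49 with shGFP, 7.42 and 7.19 with shRING1B, 6.57 and 6.57 with shBMI1, and 7.35 and 7.33 with shEZH2. It rose with shEZH2 by 0.79 ± 0.10 (1.73-fold, adjusted p = 0.0176) and was 0.76 ± 0.10 above shGFP with shRING1B (adjusted p = 0.0895). The shBMI1 pair lay inside the shGFP pair, and shEZH2 was above shBMI1 by 0.77 ± 0.10 (adjusted p = 0.0160). Both calls were lost without either array of the 2 groups compared (adjusted p up to 0.166).

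With shRING1B the ligand BMP7 was 0.48 ± 0.09 and LTBP1, which binds latent TGF-beta, 0.38 ± 0.10 above shGFP (adjusted p = 0.234 and 0.362). With shEZH2 the signal transducer SMAD3 was 0.25 ± 0.11 and BMP7 0.19 ± 0.09 above it (0.316 and 0.357). With shBMI1 LTBP1 was 0.26 ± 0.10 above, the inhibitor SMAD6 -0.28 ± 0.12 from and BMP4 0.37 ± 0.17 above it (0.877, 0.890 and 0.903). Of the filament genes related to VIM, 4 of 9 were measured (NES, DES, GFAP and PRPH), and 0 changed. None of the 9 classical cadherins listed was measured.

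Fibroblasts express VIM, ZEB1, ZEB2 and TWIST1, so their markers are given beside these genes. The mean level of the 4 measured fibroblast markers was 5.50 to 5.60 on the shGFP arrays, 5.63 to 5.71 with shRING1B, 5.65 to 5.81 with shBMI1 and 5.85 to 6.04 with shEZH2. DCN, which encodes decorin, read 6.94 and 7.08 with shGFP, 7.22 and 7.07 with shRING1B, 7.45 and 7.46 with shBMI1, and 8.03 and 7.86 with shEZH2. It rose with shEZH2 (0.93 ± 0.10, adjusted p = 0.0109) and was 0.45 ± 0.10 above shGFP with shBMI1 (adjusted p = 0.597). The DCN call with shEZH2 was lost without either shGFP array or either shEZH2 array (adjusted p up to 0.135). Of the other 3, LUM was 0.89 ± 0.23 above shGFP with shEZH2 (adjusted p = 0.120), and DPT and THY1 were -0.09 ± 0.09 and -0.15 ± 0.15 from it (0.662 and 0.669). DCN was also called lower with shRING1B than with shEZH2, at means of 7.14 and 7.94 (0.356% of all genes were called lower). The difference was -0.88 to -0.72 with each array left out in turn, and this call was lost without either array of the 2 groups. Of the 4 fibroblast markers, 1 was higher and 3 were lower in that comparison. The part of other cells, or of more RNA per cell, in the values of the 7 genes was not tested.

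The mean level of 5 measured leukocyte markers was 6.52 to 6.70 with shGFP and 6.91 to 6.93 with shRING1B, where TWIST1 was lowest. It was 6.58 to 6.61 with shBMI1 and 6.73 to 6.76 with shEZH2. Of these 5 markers, 2 were higher and 3 lower with shRING1B than with shEZH2, with a median of -0.07. CD163 and CD53 were below the limit for dim genes. The means of 5 endothelial and 5 melanocyte markers lay between 5.44 and 5.70 and between 5.00 and 5.17. Of the 5 melanocyte markers, 2 were above and 3 below shGFP with shEZH2, with a median of -0.01. MLANA, a melanocyte gene below the limit for dim genes, was 0.64 ± 0.11 above shGFP with shEZH2 (adjusted p = 0.0460), a call lost without each of 6 arrays (adjusted p up to 0.281). The leukocyte gene LCP1 was 1.23 ± 0.12 higher with shRING1B than with shEZH2 (adjusted p = 0.00808), a call lost without shRING1B replicate 2 or either shEZH2 array (adjusted p up to 0.124). DSG3, a desmosomal gene of keratinocytes, was 0.91 ± 0.13 higher with shEZH2 than with shBMI1 and -1.01 ± 0.13 from shEZH2 with shRING1B (adjusted p = 0.0220 and 0.0187). Of the 8 measured keratinocyte and squamous carcinoma markers, 2 were higher and 6 lower with shEZH2 than with shBMI1, with a median of -0.12. Between shRING1B and shEZH2 the same markers were even, 4 higher and 4 lower. Both calls of DSG3 were lost without either array of the 2 groups compared (adjusted p up to 0.182). Whether these levels have a part in the values of the 7 genes was not tested.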

How the data were processed

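RNA of 8 samples was hybridised to 1 array each. The authors deposited log2 values, 1 for each probe set and array. RMA produced them, per the submitters' processing notes, by correcting background, quantile-normalizing the arrays and summarising probes, and those notes list limma too. No version or build is given in the sources used here. Because RMA equalises the arrays' distributions, a general rise or fall of expression is hidden.

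The table held 53617 probe sets with 0 missing values and 0 pairs of identical arrays. Through the array's annotation table and RefSeq symbols (GRCh38.p14), 16098 probe sets had 1 symbol, 0 several and 37519 none. The brightest probe set of each gene gave 14884 genes. Groups came from the hairpin label. limma 3.58.1 (R 4.3.3) fitted a mean per group over all 8 arrays, with empirical Bayes moderation (no trend), two-sided tests and Benjamini-Hochberg adjustment within each comparison, and was tested on simulated data. The number of arrays limits the precision.

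Replicate numbers were not shown to pair the arrays, so no replicate block was used. Named genes were the listed members, list genes called against shGFP or with the 3 smallest p in such a comparison, and the 2 genes most similar to each member by Pearson r. List genes called between hairpins, the probe set numbering around VIM, TAGLN and the cell type markers given singly were added after their values were seen. The miR-200 genes were named in addition to these. The members and lists were chosen with earlier results of these data known. Other scalings, filters, probe set rules, variance models and left-out arrays were tried as alternatives.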

Additional observations from a re-analysis of the deposited data

How the results depend on the processing

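The 21 differences of the 7 genes from shGFP were refitted under 19 alternatives (shEZH2 under 18), giving 392 values, of which 383 kept their direction and 0 passed the test. The other 9 changed sign, all in differences that were not called. TWIST2 with shEZH2 became 0.0209 with quantile normalization of the deposited values. With each array left out in turn, TWIST2 with shEZH2 ranged from -0.14 to 0.12, VIM with shEZH2 from -0.23 to 0.0277, ZEB1 with shRING1B from -0.0285 to 0.50, ZEB1 with shEZH2 from -0.13 to 0.39 and SNAI1 with shRING1B from -0.13 to 0.23. Between hairpins the count of the 7 genes called was 0 and became 1, VIM in shEZH2 against shBMI1, under 5 alternatives: the replicate block (adjusted p = 0.0321), without the dimmest 30% of genes (0.0466), averaging the probe sets of each gene (0.0486), testing every named probe set (0.0227) and a trended robust variance (0.0155). In the F test the count of 0 became 1, ZEB2, without the dimmest 30% of genes (0.0456) and 2, TWIST1 (0.0489) and VIM (0.0418), with the trended robust variance. The cause was not tested. The replicate block changed no other call of the 7 genes. Samples with the same number deviated together with r of 0.00 to 0.25, so the numbers are not shown to pair them. Fitting only the 4 arrays compared ended the calls of LOXL2, BMP2 (shEZH2 against shGFP), AXL, HMGA2, SOX9, ST14 and MLANA. It also ended those of CCN2, CLDN7, DSG3 and DCN between shRING1B and shEZH2, and that of VIM probe set 16712274. Median centring also ended those of LOXL2 and MLANA, quantile normalization those of HMGA2 and MLANA, and the replicate block those of MLANA and of CLDN7 between shRING1B and shEZH2. The epithelial genes called higher with shEZH2 than with shBMI1 numbered 4, and 7 and 9 without the dimmest 30% of genes and with the trended robust variance. For ZEB1 with shBMI1 the SE was 0.23 and, with the replicate block, 0.098 (adjusted p = 0.311), and the difference ranged from 0.30 to 0.84 with each array left out in turn. The alternatives for the VIM probe sets and the lists, and the fit on protein-coding genes alone, were chosen after seeing the data.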
